A study of Mus musculus with 8 samples.

Results

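The miR-30 family was followed in mouse skin through 7 mature miRNAs, chosen by name from the probes of a miRNA microarray that carries 1881 mouse miRNAs. They are mmu-miR-30a-5p, mmu-miR-30a-3p, mmu-miR-30b-5p, mmu-miR-30c-5p, mmu-miR-30d-5p, mmu-miR-30e-5p and mmu-miR-30e-3p, written here without the species prefix, where 5p and 3p name the arm of the hairpin precursor from which the mature miRNA is cut. A further 5 miR-30 arms on the array (miR-30b-3p, miR-30c-1-3p, miR-30c-2-3p, miR-30d-3p and miR-30f) served as comparison. All mice were males with floxed Ncstn alleles (Ncstn flx/flx) and 1 copy of Krt14 CreER, a Cre recombinase that tamoxifen activates and that a basal keratinocyte keratin promoter drives. The NcstnΔKC group (4 arrays) was gavaged with tamoxifen (20 mg/kg) daily for 5 days starting when the mice were 8 weeks old, and then every 10 days. The normal group (4 arrays) carried the same alleles and was given corn oil, so tamoxifen and deletion of Ncstn cannot be told apart here. Skin was collected at 16 weeks from both groups, and whole-tissue RNA was measured although Krt14 CreER acts in keratinocytes. In such bulk RNA, fewer cells of a type and less miRNA per cell cannot be told apart.

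Nicastrin, the product of Ncstn, belongs to the γ-secretase complex that releases the active fragment of Notch receptors, and loss-of-function variants in the human gene are known in familial hidradenitis suppurativa. A miRNA hairpin is cut by Dicer into a duplex, and either strand may be loaded onto an Argonaute protein, where bases 2 to 8 (the seed) pair with sites in target mRNAs. The 5p arms of the miR-30 family share their seed and are therefore predicted to share most targets, while the 3p arms have seeds of their own. The family is known for roles in epithelial and mesenchymal cell identity, in heart and skeletal muscle and in fat cell differentiation. miR-30a-3p is the arm on which the paper of the study concentrates.

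Mature sequences were found in RefSeq (build GRCm38.p6) for 5 of the 7 members, and they are shown because the seed and the bases outside it set which arms share targets and which arms an array probe can tell apart. Capitals mark the seed.
miR-30a-5p: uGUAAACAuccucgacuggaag
miR-30c-5p: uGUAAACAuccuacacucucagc
miR-30e-5p: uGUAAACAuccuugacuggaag
miR-30a-3p: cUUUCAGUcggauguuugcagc
miR-30e-3p: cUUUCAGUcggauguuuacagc
The first 3 share the seed GUAAACA and the last 2 the seed UUUCAGU. Counted from the 5′ end, miR-30a-5p and miR-30e-5p differ by 1 base of 22 (C13U), and miR-30a-3p and miR-30e-3p likewise by 1 base of 22 (G18A). Both substitutions lie outside the seed. The Mir30a hairpin, which gives both miR-30a arms, lies at chr1:23272269-23272339 on the plus strand, and no other gene of the annotation spans it. In its sequence capitals mark the 5p arm and then the 3p arm.
Mir30a: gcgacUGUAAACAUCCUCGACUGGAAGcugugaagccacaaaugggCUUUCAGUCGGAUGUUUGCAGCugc
Mir30c-2 is the neighbour of Mir30a on chromosome 1. Mir30c-1, whose mature 5p arm has the same sequence as that of Mir30c-2 (chr1:23291714-23291736, plus strand, and chr4:120769584-120769606, minus strand), neighbours Mir30e on chromosome 4. Both hairpins on chromosome 4 lie within the span of Nfyc, a gene for a subunit of the CCAAT-binding factor NF-Y. Mir30b and Mir30d neighbour each other on chromosome 15.

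The probes for the miR-30a and miR-30e arms are near copies of each other, which bears on how separately the arms were measured. The longest miR-30a-3p probe and the miR-30e-3p probe of the same length (17 bases, written as DNA from the 5′ end) differ at the base in capitals, and the same holds for miR-30a-5p and miR-30e-5p.
miR-30a-3p probe: gctgCaaacatccgact
miR-30e-3p probe: gctgTaaacatccgact
miR-30a-5p probe: cttccagtcGaggatgt
miR-30e-5p probe: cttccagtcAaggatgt
Each therefore has 1 mismatch to the other hairpin's arm. The miR-30a-5p and miR-30e-5p probes have 5 mismatches to miR-30c-5p. Cross-hybridisation between the near copies was not tested.

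Every array held 1 colour (Cy3), and no spot was saturated. The arrays detected 198 to 238 miRNAs in NcstnΔKC skin and 235 to 273 in normal skin, where a miRNA counted as detected if at least 50% of the spots of 1 of its probes were well above background. All 8 arrays shared 1 slide, with NcstnΔKC arrays in row 1 and normal arrays in row 2, so the row on the slide cannot be told apart from the genotype group. The arrays carry no probe for Ncstn mRNA, and its deletion was not checked. The labels do not say that samples came from separate mice, so the spread behind each p-value is that of the samples as given and may be technical in part. Of 7 epidermal miRNAs on a fixed list, 7 were detected on every array, and liver miR-122-5p was detected on 0 arrays. Levels are scaled signals: processed intensities set relative to the 75th percentile, on each array, of the 301 probes detected on all arrays, summed over a miRNA's probes, on the log2 scale. Probes differ in brightness per molecule, so levels are compared between groups and never between miRNAs.

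In NcstnΔKC skin both arms of Mir30a and the shared miR-30c-5p were lower, while the 5p arms of miR-30b, miR-30d and miR-30e did not pass the test. Of the 6 tested members, 3 were lower in NcstnΔKC skin and 0 were higher at a limma adjusted p under 0.05. Of these 3, miR-30a-3p passed the detection filter through the normal arrays alone. Over all 222 tested miRNAs, 42.8% were called, 27.9% lower and 14.9% higher. The difference was negative in 5 of the 6 members, against 63.1% of all tested miRNAs. The median log2 difference (NcstnΔKC minus normal) was -0.37 over the 6 members, with a range from -1.22 to 0.11. It was -0.23 over all 222 tested miRNAs, with quartiles of -0.73 and 0.37. The count of 3 depended on the scaling. It was 1 with quantile normalization, cyclic loess or normexp background correction, and 0 with the percentile taken over all probes.

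miR-30a-3p, the arm with seed UUUCAGU, was lower in NcstnΔKC skin, where it was detected on 1 of 4 arrays, than in normal skin, where it was detected on 4 of 4. It entered the test through its detection in normal skin, the group in which it is higher, and was not among the miRNAs detected on all 8 arrays. Its scaled log2 level was -3.49, -4.32, -4.14 and -4.12 on NcstnΔKC arrays 1 to 4, against -3.46, -2.86, -2.33 and -2.56 on normal arrays 1 to 4. The groups did not overlap, but NcstnΔKC 1 and normal 1 lay next to each other at the inner edges. The means were -4.02 ± 0.36 in NcstnΔKC skin and -2.80 ± 0.49 in normal skin (SD, n = 4 each), a log2 difference of -1.22 ± 0.28 (SE, limma adjusted p = 0.00994). As the signal was not detected on NcstnΔKC 2, 3 and 4, this difference and the 2.32-fold it corresponds to are values of the measured signal near background, not a settled size of the change. Relative to the median of all tested miRNAs the difference was -0.98. Among the 6 tested members only miR-30a-3p had groups that did not overlap. Over all tested miRNAs, 36.9% had groups without overlap, and 23.4% were lower in NcstnΔKC skin without overlap.

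The miR-30a-3p signal was dim, close to the detection limit in NcstnΔKC skin. The summed processed intensity was 103, 46.1, 60.1 and 61.5 on NcstnΔKC arrays, against 116, 167, 245 and 223 on normal arrays. Spots well above background numbered 17 of 28, 0 of 29, 0 of 30 and 2 of 29 on NcstnΔKC arrays. On normal arrays they numbered 19 of 30, 28 of 29, 28 of 28 and 26 of 26. Both of its probes showed the difference in detection, but the 16-base sequence lies within the 17-base sequence, so they are not separate evidence. Detection on the normal arrays was also what admitted miR-30a-3p to the test. The 17-base probe had 17 of 59 spots above background in NcstnΔKC skin and 58 of 58 in normal skin, and the 16-base probe had 2 of 57 in NcstnΔKC skin and 43 of 55 in normal skin.

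In the authors' deposited log2 values, normalized in a way that the labels and headers do not state, miR-30a-3p was 5.00, 4.05, 4.28 and 4.09 on NcstnΔKC arrays, against 4.67, 5.10, 6.24 and 5.98 on normal arrays. Here NcstnΔKC 1 lay above normal 1, and the groups overlapped. The difference was -1.14 with a limma adjusted p of 0.0506. The call of miR-30a-3p was also lost with normexp (-0.36, adjusted p = 0.0783), with quantile normalization (-0.80, 0.102), with cyclic loess (-0.91, 0.0577) and with the scanner software's totals (-0.18, 0.670). Under all 23 alternatives computed for it the difference stayed negative, but many of these could not turn its sign. As the groups did not overlap in the scaled signal, leaving out arrays or moving the floor could not. Fitting the replicate number as a block, or dropping the filter, left the difference at -1.22. Leaving out any 1 array kept the limma adjusted p between 0.00576 and 0.0345.

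**Figure D1:**
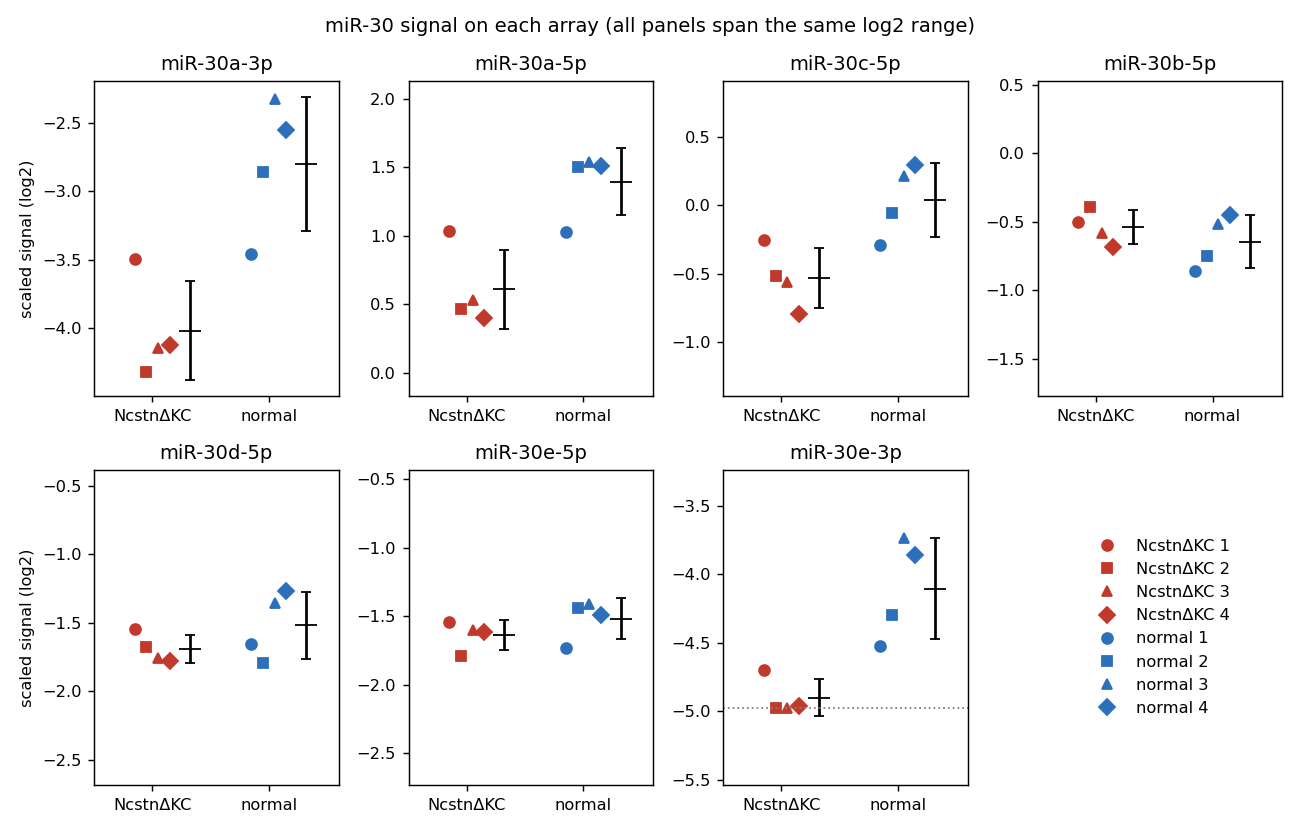
Scaled log2 signal of the 7 miR-30 members on each array, NcstnΔKC in red left of normal in blue, with marker shape giving the array number and bars the mean ± SD (n = 4 each). Panels span the same log2 range at different positions, and the dotted line is the floor of -4.97. miR-30a-3p and miR-30e-3p have groups without overlap, and in the miR-30a arms array 1 of each group lies toward the other group.

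miR-30a-5p, the other arm of the hairpin and known from human cells as a repressor of the autophagy gene BECN1, was 1.72-fold lower in NcstnΔKC skin. Its scaled log2 level was 1.04, 0.47, 0.53 and 0.40 on NcstnΔKC arrays, against 1.03, 1.50, 1.54 and 1.51 on normal arrays. Arrays 2 to 4 of the groups were apart, while NcstnΔKC 1 lay just above normal 1, so the groups overlapped. The means were 0.61 ± 0.29 in NcstnΔKC skin and 1.39 ± 0.24 in normal skin (SD, n = 4 each), a log2 difference of -0.78 ± 0.19 (SE, limma adjusted p = 0.0137), or -0.55 relative to the median of all tested miRNAs. Every spot used was well above background on all 8 arrays, and its 3 probes of 15 to 17 bases differed by -0.83, -0.80 and -0.77. The processed intensity was 2380, 1274, 1536 and 1416 on NcstnΔKC arrays, against 2599, 3448, 3576 and 3737 on normal arrays. In the authors' deposited log2 values miR-30a-5p averaged 9.02 ± 0.35 in NcstnΔKC skin and 9.84 ± 0.27 in normal skin, a difference of -0.82 with a limma adjusted p of 0.0243.

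With array 1 of each group left out, an alternative chosen after seeing that both arrays stood apart in miR-30a-5p, the difference was -1.61 for miR-30a-3p (limma adjusted p = 0.00150) and -1.05 for miR-30a-5p (0.00178). In both miR-30a arms and in miR-30c-5p, these arrays held the highest NcstnΔKC and the lowest normal value. Leaving them out therefore had to widen the differences, and the smaller p-values are no support. On the NcstnΔKC arrays that remain, miR-30a-3p was not detected. The number of members called lower was again 3, and 96 miRNAs were called in place of 95.

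Whether the 2 arms of Mir30a fell unequally was asked within each array, where scaling by a constant cancels. miR-30a-3p minus miR-30a-5p was -4.63 ± 0.13 on NcstnΔKC arrays and -4.20 ± 0.28 on normal arrays (SD, n = 4 each), a change of -0.43. Because miR-30a-3p was not detected on NcstnΔKC 2, 3 and 4, the NcstnΔKC side of this difference is mostly signal near background, and it does not show that the arms changed unequally. The groups did not overlap, and the exact two-sided permutation p was 0.0286, the smallest that 70 labelings can give, or 0.0393 after Benjamini-Hochberg adjustment over 11 within-array differences. This result depended on how the dim 3p arm was summarised. The change was 0.28 with normexp, 0.057 with the mean of log2 values over probes and 0.73 with the scanner software's totals, so its sign turned. In a limma fit over all miRNAs relative to miR-30a-5p the adjusted p was 0.128. Leaving out any array except normal 1 ended the call, at changes of -0.49 to -0.32, and the change was -0.53 without normal 1. These losses are in part set by the few labelings of the permutation test, as given below for the 5p pairs.

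miR-30c-5p, which both Mir30c-1 and Mir30c-2 encode and which is known to repress connective tissue growth factor in rat heart cells, was 1.48-fold lower in NcstnΔKC skin. Its scaled log2 level was -0.26, -0.52, -0.56 and -0.79 on NcstnΔKC arrays, against -0.29, -0.06, 0.22 and 0.29 on normal arrays. As with miR-30a-5p, the overlap came from NcstnΔKC 1 and normal 1, with arrays 2 to 4 apart. The means were -0.53 ± 0.22 in NcstnΔKC skin and 0.038 ± 0.27 in normal skin (SD, n = 4 each), a log2 difference of -0.57 ± 0.18 (SE, limma adjusted p = 0.0361), or -0.34 relative to the median. The 2 probes differed by -0.57 each. The call was lost when any of arrays 2 to 4 of either group was left out (adjusted p up to 0.0964). The array cannot tell the 2 source hairpins apart, and their 3p arms, miR-30c-1-3p and miR-30c-2-3p, were detected on 0 of 8 arrays.

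miR-30b-5p and miR-30d-5p, encoded side by side on chromosome 15 and known to repress the glycosyltransferase gene GALNT7 in human melanoma, did not pass the test. miR-30b-5p was at -0.50, -0.39, -0.58 and -0.68 on NcstnΔKC arrays, against -0.86, -0.75, -0.52 and -0.45 on normal arrays. The values interleaved, and the log2 difference was 0.11 ± 0.15 (SE, limma adjusted p = 0.561). It was 0.34 relative to the median of all tested miRNAs, and its sign turned without scaling (-0.16) and with spike-in scaling (-0.20). miR-30d-5p was at -1.55, -1.68, -1.76 and -1.78 on NcstnΔKC arrays, against -1.65, -1.80, -1.36 and -1.27 on normal arrays. Normal 3 and 4 lay above the other 6 arrays, and the difference was -0.17 ± 0.16 (SE, limma adjusted p = 0.397).

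miR-30e-5p, which differs from miR-30a-5p by 1 base and shares its seed, did not pass the test either. It was at -1.54, -1.79, -1.60 and -1.61 on NcstnΔKC arrays, against -1.73, -1.44, -1.41 and -1.49 on normal arrays. Normal 1 lay below 3 of the NcstnΔKC arrays, and the difference was -0.12 ± 0.13 (SE, limma adjusted p = 0.481). Its sign turned with quantile normalization, cyclic loess, normexp, the percentile over all probes and the authors' deposited values, all with adjusted p of 0.589 or more.

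miR-30e-3p, which shares the seed of miR-30a-3p, was detected on 0 NcstnΔKC arrays and on 2 normal arrays and was not tested. Its level was -4.70, -4.97, -4.97 and -4.96 on NcstnΔKC arrays, of which 2 sat at the floor, against -4.52, -4.30, -3.74 and -3.86 on normal arrays. The groups did not overlap. No fold is given, since the NcstnΔKC signal was not well above background and the difference depended on the floor, at -0.80 as measured and -0.087 with a floor 2 times as high. Spots above background numbered 1 of 29, 0 of 30, 0 of 27 and 1 of 28 on NcstnΔKC arrays, against 6 of 29, 6 of 29, 14 of 29 and 14 of 30 on normal arrays. All of these came from the 18-base probe, and the 17-base probe had 0 spots above background in either group. With no filter on dim miRNAs, where all 1881 were tested, the limma adjusted p was 0.179. The other 5 miR-30 arms were detected on 0 of 8 arrays and sat at the floor on each.

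**Figure D2:**
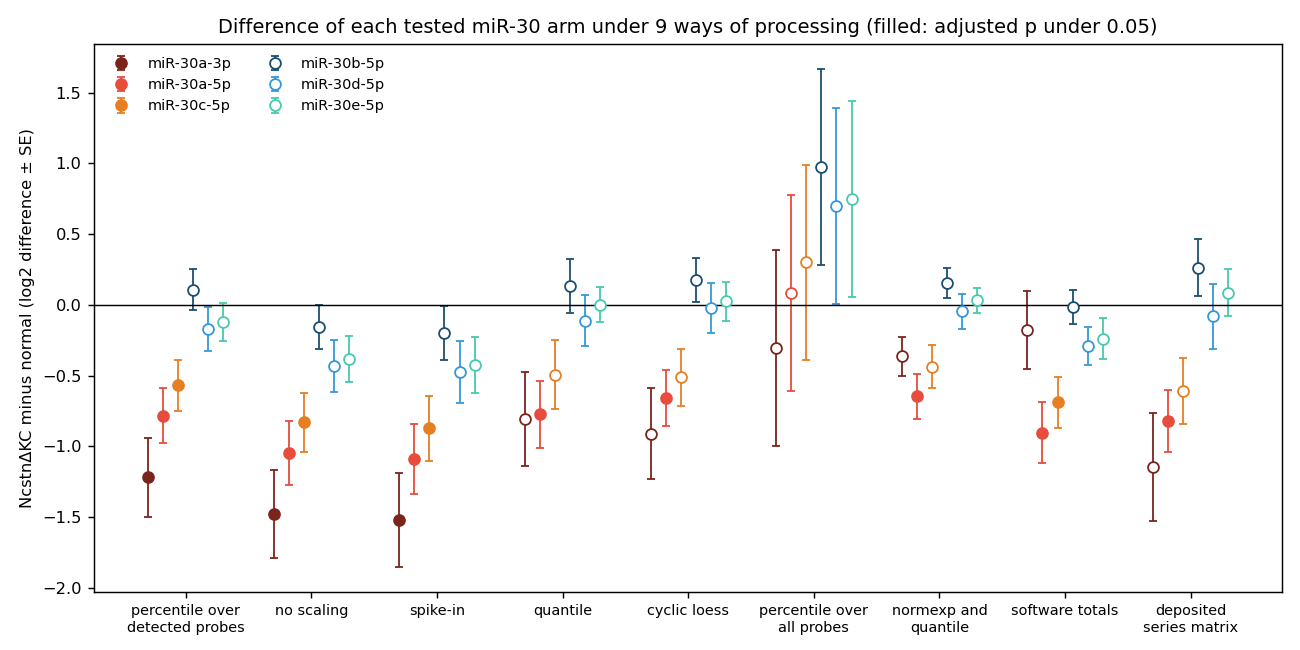
Log2 difference (NcstnΔKC minus normal, ± SE) of the 6 tested miR-30 members under 9 ways of scaling or summarising the arrays, with filled points where the limma adjusted p is under 0.05. The 5 points of the 5p arms shift together between settings, miR-30a-5p stays below the 5p arms of miR-30b, miR-30d and miR-30e in each, and miR-30a-3p moves from -1.22 to -0.18 with the software totals.

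The 5p arms share a seed, so the next question was whether their levels changed unequally, again from differences within each array. Of the 10 pairs of 5p members, 7 changed by the exact two-sided permutation test (p = 0.0286 each, the smallest possible, adjusted p = 0.0393 over 11 differences). The pairs share their members, so these 7 are not separate results. How often pairs of other tested miRNAs change in this way was not computed, and 36.9% of single tested miRNAs had groups without overlap. The pattern was of miR-30a-5p and miR-30c-5p losing signal relative to the 5p arms of miR-30b, miR-30d and miR-30e, and of miR-30b-5p gaining relative to miR-30d-5p.

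The widest change was in miR-30a-5p minus miR-30b-5p. It was 1.54, 0.86, 1.11 and 1.09 on NcstnΔKC arrays, against 1.88, 2.26, 2.06 and 1.96 on normal arrays, a change of -0.89 or 1.85-fold, with no overlap. miR-30a-5p minus miR-30e-5p was 2.58, 2.26, 2.13 and 2.02 on NcstnΔKC arrays, against 2.76, 2.94, 2.95 and 2.99 on normal arrays, a change of -0.66 or 1.58-fold. Here too every NcstnΔKC array lay below every normal array, for arms whose sequences differ by 1 base. miR-30a-5p minus miR-30d-5p changed by -0.61 (1.53-fold). In the limma fit relative to miR-30a-5p, the adjusted p was 0.0106 for miR-30b-5p, 0.0276 for miR-30e-5p and 0.0524 for miR-30d-5p.

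For miR-30c-5p the corresponding changes were -0.40 against miR-30d-5p and -0.45 against miR-30e-5p. miR-30b-5p minus miR-30c-5p averaged -0.0058 ± 0.17 on NcstnΔKC arrays and -0.68 ± 0.083 on normal arrays (SD, n = 4 each), a change of 0.68. The neighbours miR-30b-5p and miR-30d-5p moved apart by 0.28, or 1.21-fold. The other 3 pairs did not pass. miR-30a-5p minus miR-30c-5p changed by -0.21 (exact permutation p = 0.0571, adjusted p = 0.0698), miR-30b-5p minus miR-30e-5p by 0.23 (0.0857, adjusted p = 0.0943) and miR-30d-5p minus miR-30e-5p by -0.051 (0.771).

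The direction of the 7 changes was kept under each of the 19 or 20 alternatives run for the pair, but many of these could not turn it. As the groups did not overlap, leaving out arrays could not, and other floors, the replicate block and the limma fit gave the same change. The alternatives that could turn it were quantile normalization, cyclic loess, normexp, the software's totals, other summaries over probes and the authors' values. miR-30a-5p minus miR-30b-5p ranged from -1.08 to -0.79, miR-30a-5p minus miR-30d-5p from -0.79 to -0.48, miR-30a-5p minus miR-30e-5p from -0.91 to -0.59 and miR-30b-5p minus miR-30c-5p from 0.59 to 0.87. The number of pairs that passed was 0 with quantile normalization and with cyclic loess, 6 without normal 1 and 0 without any other array. With 7 arrays the smallest permutation p is again 0.0286, and after adjustment over 11 differences none can pass unless at least 7 reach it, so these counts are all or none by design and say little about the size of the changes.

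**Figure D3:**
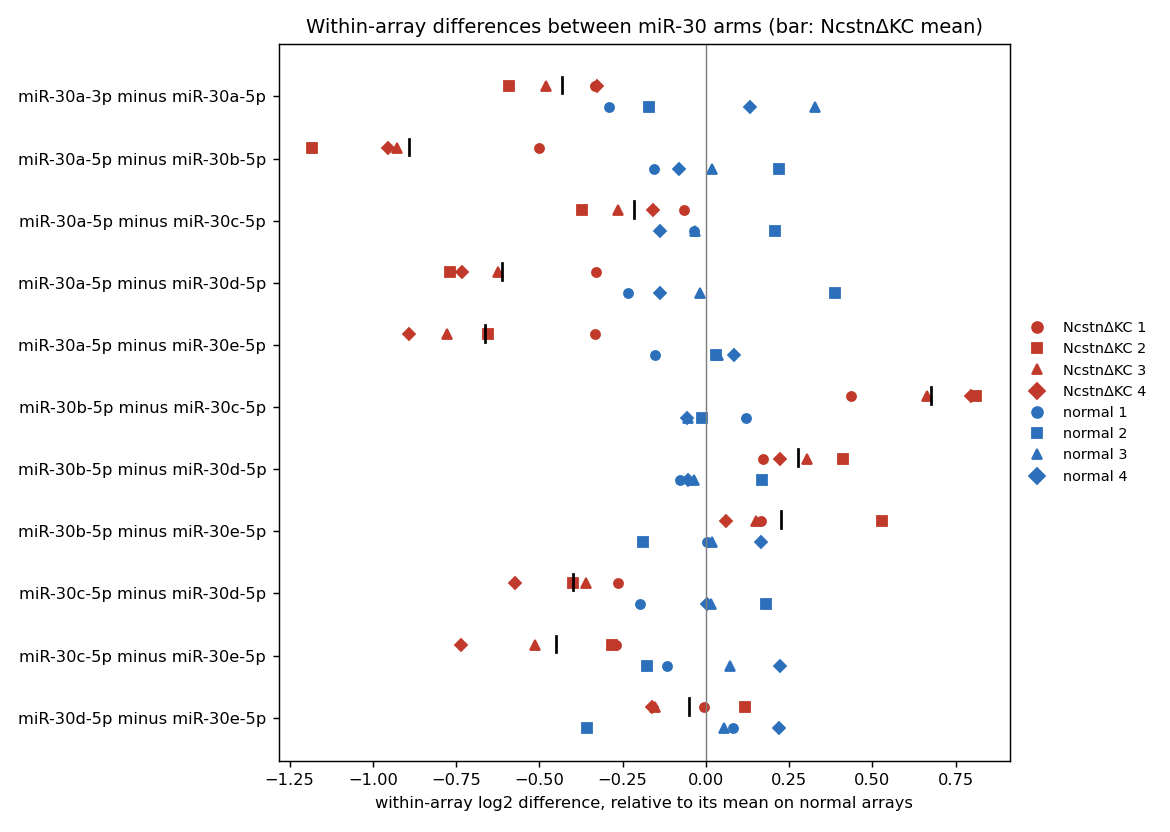
Log2 difference between 2 miR-30 arms within each array, minus its mean on the normal arrays, for the 11 differences tested, NcstnΔKC in red above normal in blue, with black bars at the NcstnΔKC mean. Red and blue do not overlap in 8 of the 11 differences, among them miR-30a-5p against the 5p arms of miR-30b, miR-30d and miR-30e, and overlap in the other 3. The share without overlap among pairs of other miRNAs was not computed.

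The miR-30 arms also differed in how they varied among arrays. Over the 8 arrays the log2 level of miR-30a-3p correlated with that of miR-30a-5p at r = 0.975 and miR-30a-5p with miR-30c-5p at r = 0.950, while miR-30a-5p and miR-30b-5p gave r = -0.063. After each group's mean was taken out, so that only variation within groups was left, miR-30a-3p and miR-30a-5p gave r = 0.907 and miR-30a-5p and miR-30b-5p gave r = 0.512. These coefficients describe 8 arrays that share scaling and group, and carry no test. Outside the family, the level of miR-30a-3p was most like those of miR-128-3p (r = 0.988), miR-486a-5p (0.986) and miR-466q (0.974). Within groups the most alike were miR-486a-5p (0.981), miR-128-3p (0.974) and miR-378d (0.968). For miR-30a-5p they were miR-466q (0.974), miR-486a-5p (0.973) and miR-669p-3p (0.972) by level, and within groups miR-486a-5p (0.948), miR-29c-3p (0.938) and miR-101a-3p (0.922).

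Striated muscle miRNAs ordered the arrays nearly as the miR-30a arms did. The summed signal of 8 striated muscle miRNAs, on the log2 scale, was 5.27, 2.71, 3.71 and 3.73 on NcstnΔKC arrays, against 4.15, 5.67, 6.40 and 6.10 on normal arrays. NcstnΔKC 1 was above its group and normal 1 below its own, as in miR-30a-5p. Of the 8, 5 were tested and 1 was called lower, against 27.9% of all tested miRNAs. This was miR-1a-3p, a muscle-specific miRNA, at 2.64 in NcstnΔKC and 4.47 in normal skin (log2 difference -1.83, limma adjusted p = 0.0451). Lower but not called were miR-133a-3p (-1.73, limma adjusted p = 0.0518), miR-133b-3p (-1.69, 0.0557), miR-133a-5p (-1.84, 0.0575) and miR-206-3p (-1.03, 0.283). The median log2 difference of the 5 tested was -1.73, against -0.23 over all tested miRNAs. miR-499-5p, miR-208a-3p and miR-208b-3p, which come from myosin genes, were detected on 0 of 8 arrays. The part of muscle in the miR-30a difference was not tested.

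The summed levels of other lists also differed between the groups. Each sum is weighted toward its brightest members. The summed signal of 6 adipose-associated miRNAs ran from 1.96 to 2.23 in NcstnΔKC skin and from 2.27 to 2.89 in normal skin, with 2 of 6 tested lower (27.9% of all tested miRNAs were). That of 6 white blood cell miRNAs ran from 1.48 to 3.09 in NcstnΔKC skin and from 0.91 to 1.35 in normal skin. Of the 5 tested, 2 were called higher (14.9% of all tested), miR-142a-3p and miR-155-5p. The brightest, miR-223-3p, was not called (limma adjusted p = 0.0644). Its groups overlapped, with NcstnΔKC 1 at 0.70 and normal 4 at 0.83. Also not called were miR-150-5p (limma adjusted p = 0.0653) and miR-181a-5p, which differed the other way (log2 difference -0.30, limma adjusted p = 0.155). The summed signal of 4 miRNAs on the fibroblast list ran from 3.14 to 3.77 in NcstnΔKC skin and from 2.30 to 2.86 in normal skin. Of the 4 tested, 3 were higher (14.9% of all tested) and 1 was lower (27.9% of all tested). The higher ones were miR-199a-3p and miR-199a-5p, which are 2 arms of miR-199a, and miR-214-3p. The lower one was miR-145a-5p (log2 difference -1.14, limma adjusted p = 0.0450), so this list did not move as 1 set. The 7 epidermal miRNAs summed to 4.51 to 4.92 in NcstnΔKC and 4.49 to 4.78 in normal skin, ranges that overlap, and 4 of 7 were called lower, against the same 27.9%. These 4 differed by -0.81 to -0.58. The brightest, miR-205-5p, was 0.47 higher and not called (limma adjusted p = 0.0518), nor were miR-200c-3p (0.12) and miR-141-3p (0.30). Of 2 endothelial miRNAs, 1 was tested and 0 were called. The part of these cell types in the miR-30 differences was not tested.

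**Figure D4:**
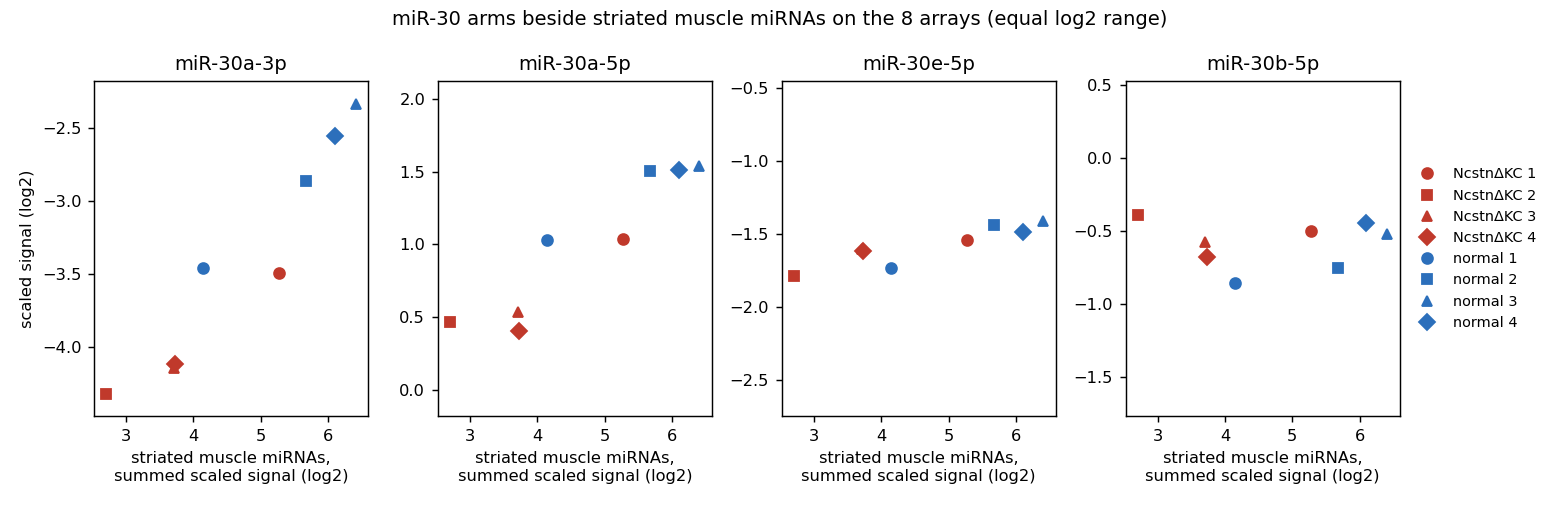
Scaled log2 signal of 4 miR-30 members against the summed log2 signal of the 8 striated muscle miRNAs on each array, NcstnΔKC in red and normal in blue, marker shape giving the array number. The panels span an equal log2 range. NcstnΔKC 1 and normal 1 have nearly the same level in the miR-30a panels but lie apart on the muscle axis, at 5.27 and 4.15. miR-30b-5p is about as high at 2.71 as at 6.40 on the muscle axis.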

How the data were processed

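The authors deposited scanner files of 8 one-colour arrays and a series matrix. Per the file headers, Agilent Feature Extraction 10.7.1.1 (build mm9) gave processed intensity after subtraction of a background surface, with no scaling between arrays, and per-spot flags. The series matrix holds log2 values deposited by the authors, and how they were normalized is not stated in the labels or headers. Across miRNAs they correlated with the software's totals at r = 0.883 to 0.909.

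From these, spots of 4415 probes were averaged per probe without control and outlier spots, divided by the 75th percentile of 301 probes on that array, summed per miRNA, floored at 0.0318 and taken to log2. Testing took the 222 miRNAs that either group detected on all 4 of its arrays, with limma 3.58.1 in R 4.3.3 on group alone, with Benjamini-Hochberg adjustment over the 222 and a threshold of 0.05. Of these, 18 had a value at the floor, which understates change. The limma step was tested on simulated data. Within-array differences were compared by exact permutation. The number of arrays limits precision.

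The named miRNAs are the 7 members, the 5 other miR-30 arms and, for each miR-30a arm, the 3 tested miRNAs outside the family with the highest Pearson r by level and by deviation from the group mean. Members, cell type lists and tests were chosen with earlier results of these data known. The main fit did not pair the samples by replicate number, which in both groups is also the column on the slide. Deviations of same-numbered arrays correlated at -0.44, 0.20, -0.26 and -0.23, which cannot settle whether the samples were paired. Alternatives were other scalings, background correction, summaries, floors and filters, the authors' values, a replicate block and leaving out arrays.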

Additional observations from a re-analysis of the deposited data

Results flagged for a closer look

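Of 36 sets of 4 values checked for an array far from the rest of its group, 3 had one, and chance alone gives about 1 in 20. For miR-30a-5p, normal 1 stood apart at 1.03 from the other normal arrays at 1.50 to 1.54 (scaled log2 level), and the summed muscle signal of the same array was also the lowest of the normal group. For miR-30e-3p, NcstnΔKC 1 stood apart at -4.70, with the other NcstnΔKC arrays at or near the floor of -4.97. Of these, 2 were set to the floor and so hold equal values, and the chance rate above does not cover such values. For the difference miR-30b-5p minus miR-30d-5p, normal 2 stood apart at 1.04 from the other normal arrays at 0.80 to 0.84, and lay just below the lowest NcstnΔKC array at 1.05.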

How the results depend on the processing

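The number of miRNAs called varied with the scaling, most with the percentile over all probes, and the cause was not tested. In that setting the SE was 0.69 for each tested member, against 0.13 to 0.28 with the percentile over detected probes. With the percentile over all probes, 12 miRNAs were called (0 lower, 12 higher) in place of 95 (62 lower, 33 higher), the median difference of the 222 was 0.64 in place of -0.23, 0 of the 3 members were called, and the differences were -0.31 (adjusted p = 0.835) for miR-30a-3p and, with the sign turned, 0.085 for miR-30a-5p, 0.30 for miR-30c-5p, 0.70 for miR-30d-5p and 0.75 for miR-30e-5p. Quantile normalization called 67 miRNAs (31 lower, 36 higher; median -0.07) and 1 member, with -0.80 for miR-30a-3p, -0.49 for miR-30c-5p and 0.00092 for miR-30e-5p. Cyclic loess called 76 (35 lower, 41 higher; median -0.076) and 1 member, with -0.91, -0.51 and 0.026 for the same miRNAs. Normexp called 65 (28 lower, 37 higher; median -0.065) and 1 member, with -0.36, -0.44 and 0.031. The authors' values called 72 (36 lower, 36 higher; median -0.14) and 1 member, with -1.14, -0.61 and 0.086. Without scaling 125 were called (101 lower, 24 higher; median -0.49), and with spike-in scaling 109 (91 lower, 18 higher; median -0.54). miR-30b-5p was then -0.16 and -0.20, and -0.013 with the software's totals, which gave -0.18 for miR-30a-3p. With no filter, where 1881 miRNAs were tested, 19 were called and 0 members, at -1.22 (0.188) for miR-30a-3p, -0.78 (0.173) for miR-30a-5p and -0.57 for miR-30c-5p. Among miRNAs detected on all 8 arrays 61 were called. Leaving out 1 array gave 59 to 94 called miRNAs (59 without NcstnΔKC 3), 2 to 3 members, and -0.68 to -0.48 for miR-30c-5p.

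The arm difference (-0.43) turned to 0.28 with normexp, 0.73 with the software's totals and 0.057 with the mean of log2 values. Its call was lost at -0.030 with quantile normalization, -0.25 with cyclic loess, -0.24 with the brightest probe, -0.32 with the authors' values, -0.27 with a floor 2 times as high and -0.43 in limma relative to miR-30a-5p, and it ranged from -0.53 to -0.32 leaving out 1 array. Without array 1 of both groups it was -0.56, in a comparison of 3 with 3 arrays whose smallest permutation p is 0.1, so it could not pass. Of the 7 pairs of 5p members that changed, 0 passed with quantile normalization or cyclic loess and 0 to 6 leaving out 1 array. The 0 without array 1 of both groups was fixed by the same limit, and miR-30a-5p minus miR-30b-5p was -1.07 there. miR-30d-5p minus miR-30e-5p ranged from -0.17 to 0.023 leaving out 1 array. With the replicate number as a block, 71 miRNAs and 1 member were called, miR-30a-3p (adjusted p = 0.0488). The block gave -0.78 (0.0603) for miR-30a-5p, -0.57 (0.114) for miR-30c-5p, -0.43 for the arm difference and 0 pairs, in a permutation too small to pass. The dimness of miR-30e-3p limits its reading, and its difference was 0.12 with the percentile over all probes.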

Other observations

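Outside the rule for named miRNAs, and chosen after its values were seen, miR-30e-5p varied most like the muscle miRNAs miR-133a-5p (r = 0.918 over the 8 arrays), miR-133b-3p (0.902) and miR-133a-3p (0.901), although its difference between the groups was only -0.12.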
